A study of Mus musculus with 6 samples.

Results

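The retinal vasculature was followed through 10 genes, 7 that mark endothelium (Cldn5, Pecam1, Cdh5, Kdr, Flt1, Tek and Tie1) and 3 that mark pericytes (Rgs5, Pdgfrb and Cspg4). The genes were taken by symbol, and all 10 were found among the 24346 symbols of the deposited expression tables. The data were mRNA levels in whole mouse retina from a Cyfip2 conditional knockout (CKO, 3 libraries) and from controls labelled as wild-type for Cyfip2 (WT, 3 libraries). Cyfip2 encodes a subunit of the WAVE complex, which drives branched actin assembly, and the comparison asks which transcripts differ when it is deficient in the retina. The labels give neither the driver and cell type of the deletion, nor the age, sex or strain of the mice, nor whether the libraries of a group came from separate animals. The p-values therefore measure the spread between these libraries, which may be technical.

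Blood reaches the inner retina through a capillary network whose endothelial cells are sealed by tight junctions, the inner blood-retina barrier, and are wrapped by pericytes. Endothelial cells are kept alive and made to sprout by vascular endothelial growth factor (VEGF) acting on the receptor encoded by Kdr, while the Tie receptors bind or modulate angiopoietin signals that stabilise the vessel wall. Endothelial cells in turn recruit pericytes by secreting platelet-derived growth factor B (PDGF-B), which acts on the receptor encoded by Pdgfrb. Few of the cells of a retina are vascular, and Kdr is also transcribed in cells of the neural retina. In RNA from whole tissue, fewer cells of a type and less RNA per cell cannot be told apart.

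Levels are given as FPKM, sequenced fragments scaled to the length of the transcript and to the size of the library, a scale on which genes of different length can be compared. The number of genes at or above 1 FPKM ran from 13149 to 13242, and relative to WT 1 the sequencing depth of the other libraries was 1.05 to 1.30. WT 3 stood apart in that 9.66% of its summed FPKM came from 10 features. The targeted gene followed the labels: Cyfip2 was at 8.33, 10.2 and 11.2 FPKM in the CKO libraries and at 35.5, 63.1 and 62.3 FPKM in the WT libraries (log2 fold change -2.29, SE 0.21, limma adjusted p = 0.0239, and 0.00160 to 0.197 over the alternative fits).

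The 10 genes spanned a wide range of levels in the retina. Kdr was by far the most abundant, with a mean of 65.6 FPKM over the 6 libraries, above 91.6% of the genes tested. Rgs5 (26.3 FPKM) and Cldn5 (21.4 FPKM) followed, then Flt1 (9.50 FPKM), Pecam1 (6.48 FPKM), Pdgfrb (5.86 FPKM), Tie1 (4.41 FPKM), Cdh5 (4.07 FPKM), Tek (2.01 FPKM) and Cspg4 (0.751 FPKM). Kdr exceeded Rgs5, its nearest neighbour in this order, by a ratio of 2.49 with no overlap of the 6 values. The ranges also stood apart between Cldn5 and Flt1, between Pdgfrb and Tie1, between Cdh5 and Tek and between Tek and Cspg4. Rgs5 was above Cldn5 in 5 of 6 libraries, Pecam1 above Pdgfrb in 4 of 6 and Tie1 above Cdh5 in 4 of 6, so the order within these pairs is not fixed. Flt1 was above Pecam1 in each of the 6 libraries, although the ranges overlapped.

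**Figure D1:**
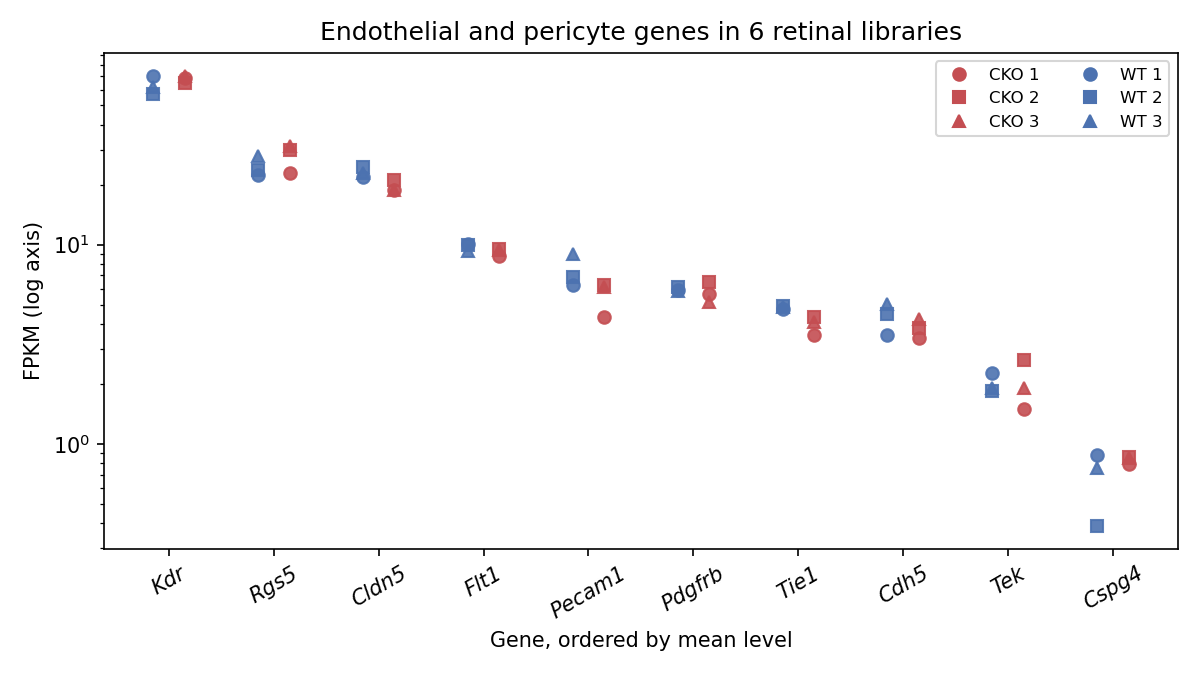
FPKM of the 10 genes in each of the 6 retinal libraries on a log axis, ordered by mean level, with CKO libraries in red, WT libraries in blue and the replicate number as the symbol. Kdr sits at 57.3 to 70.7 FPKM and Cspg4 at 0.385 to 0.877 FPKM.

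Between CKO and WT, no endothelial or pericyte gene differed past the threshold of the test across all genes. Of the 10 genes, 9 reached the minimum mean of 1 FPKM and were tested, and 0 of 9 were called by limma at an adjusted p below 0.05, where 3 of all 13215 genes tested (0.0227%) were called. By unadjusted limma p below 0.05, 2 of the 9 were lower in CKO (Cldn5 and Tie1), a direction taken at this p by 4.36% of all genes, and 0 of the 9 were higher, against 3.52% of all genes. Values of 3 genes, Cldn5, Pecam1 and Tie1, were lower in every CKO library than in any WT library, as were those of 6.95% of all genes tested. In the other direction the groups stood apart for 0 of the 9 and for 6.96% of all genes. Among the 7 endothelial genes, 6 had log2 fold changes below 0 and 1, Kdr, above 0, with a median of -0.14, beside a median of -0.0016 over all genes tested. The spread of all genes puts these sizes in proportion: the 5th and 95th percentiles of their log2 fold changes were -0.22 and 0.20.

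The upstream sequences of 4 genes on which the description turns are printed here, namely Kdr and Flt1, paralogous receptors of one ligand family at very different levels, Cldn5, for which the groups stood apart, and Rgs5, the most abundant pericyte gene. Each line gives the 250 bases before the RefSeq transcription start (GRCm38.p6), 5′ to 3′ on the strand of the gene, with the core motif of ETS factors (GGAA on either strand) in capitals. ETS proteins are transcription factors with known roles in endothelial gene expression. The windows lie at chr5:75978456-75978705 on the minus strand for Kdr, chr5:147726012-147726261 on the minus strand for Flt1, chr16:18776597-18776846 on the plus strand for Cldn5 and chr1:169655251-169655500 on the plus strand for Rgs5.
Kdr: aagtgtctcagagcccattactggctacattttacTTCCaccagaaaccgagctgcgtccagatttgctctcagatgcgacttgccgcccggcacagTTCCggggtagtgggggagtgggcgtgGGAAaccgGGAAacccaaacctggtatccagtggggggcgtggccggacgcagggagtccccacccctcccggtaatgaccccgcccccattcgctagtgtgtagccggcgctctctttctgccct
Flt1: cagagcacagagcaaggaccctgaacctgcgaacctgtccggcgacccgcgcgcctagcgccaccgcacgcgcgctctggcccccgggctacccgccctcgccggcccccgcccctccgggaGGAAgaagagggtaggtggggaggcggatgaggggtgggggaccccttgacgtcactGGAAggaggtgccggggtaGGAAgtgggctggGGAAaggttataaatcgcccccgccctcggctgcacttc
Cldn5: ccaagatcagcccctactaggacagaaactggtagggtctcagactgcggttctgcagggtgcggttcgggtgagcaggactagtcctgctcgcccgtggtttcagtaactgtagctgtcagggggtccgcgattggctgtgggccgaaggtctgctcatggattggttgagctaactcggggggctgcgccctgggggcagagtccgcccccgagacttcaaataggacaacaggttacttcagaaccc
Rgs5: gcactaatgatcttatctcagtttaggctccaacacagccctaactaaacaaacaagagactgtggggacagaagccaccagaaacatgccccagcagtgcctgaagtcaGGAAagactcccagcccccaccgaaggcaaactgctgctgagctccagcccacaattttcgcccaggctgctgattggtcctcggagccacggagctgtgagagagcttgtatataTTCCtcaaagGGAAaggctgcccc

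Kdr and Flt1 each held 4 GGAA cores, Rgs5 held 3 and Cldn5 held 0. The motif is so short that 93.4% of all 32851 windows of this length in the RefSeq table held at least 1, so its presence sets no gene apart, and its absence from Cldn5 says only that these letters are not in this window. RefSeq windows were examined for 7 of the 10 genes, and 6 of the 7 held a GGAA core. Pdgfrb, on chromosome 18, was left out, and no windows of Pecam1 and Cdh5 were examined. The GC box GGGCGG, searched on both strands, was in 4 of the 7 windows (Cldn5, Kdr, Flt1 and Cspg4) and in 32.7% of all windows. The TATA motif TATAAA, also on both strands, was in the window of Flt1 alone among the 7 and in 12.4% of all windows. No GGAA core in the 7 windows overlapped a GC box or TATA motif. G and C made up 70.4% of the Flt1 window, 61.6% of that of Kdr, 59.6% of that of Cldn5 and 53.6% of that of Rgs5, against a median of 52.4% over all windows. These are matches of letters and not measured binding.

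The VEGF receptors lay on either side of 0. Kdr, the main signalling receptor for VEGF-A, was at 69.1, 64.6 and 70.7 FPKM in CKO libraries 1 to 3 and at 70.3, 57.3 and 61.8 FPKM in WT libraries 1 to 3. The groups overlapped because WT 1 was as high as the CKO libraries. The means were 68.1 ± 3.15 FPKM in the CKO group and 63.1 ± 6.60 FPKM in the WT group (SD, n = 3 each), and on the log2 scale CKO minus WT was 0.11 (95% confidence interval -0.06 to 0.29, limma adjusted p = 0.775). Without WT 1 the log2 fold change was 0.19 (adjusted p = 0.567), and without WT 2 it was 0.05 (adjusted p = 0.925). Flt1, which encodes a VEGF receptor that also exists as a secreted decoy, was at 8.79, 9.55 and 9.36 FPKM in CKO and at 10.04, 9.92 and 9.34 FPKM in WT. CKO 1 held the lowest value and WT 3 lay within the CKO range. Flt1 varied least of the 10 genes, with a coefficient of variation of 4.74% over the 6 libraries, and its fold change of -0.07 (log2) had an interval of -0.23 to 0.08, which as a fold is 0.852 to 1.06 (adjusted p = 0.836). Without CKO 1 it was -0.04. A value per gene does not separate the membrane form of Flt1 from the secreted one.

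Kdr exceeded Flt1 by 6.76-fold to 7.85-fold in the CKO libraries and by 5.77-fold to 6.9996-fold in the WT libraries, so the ratio was of one order in all 6 libraries and its groups overlapped. Kdr is the one endothelial gene of the 7 whose log2 values correlated negatively with those of each of the 6 others over the 6 libraries (Pearson's r between -0.84 and -0.0074, given as a description). Among the 15 pairs of the other 6 genes r ran from -0.05 to 0.89 with a median of 0.61. These points share 6 libraries in 2 groups, and the part of cells outside the vessels in the Kdr signal was not tested. Muller glia markers, as a sum of 6 genes, were at 1662 to 1804 FPKM in the CKO group and 1642 to 1741 FPKM in the WT group.

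Of the ligands and co-receptors of the VEGF family, 6 of 8 genes found in the tables were tested and 0 were called in either direction (limma), with 4 log2 fold changes above 0 and 2 below 0. Vegfa, the main ligand of Kdr, was abundant at 92.8 ± 5.80 FPKM in the CKO group and 91.3 ± 7.005 FPKM in the WT group (log2 fold change 0.02, interval -0.14 to 0.19, adjusted p = 0.959). Vegfb, a ligand of Flt1, was at 24.2 against 25.6 FPKM (interval -0.29 to 0.12). Vegfc, a ligand of the lymphatic receptor, was at 2.31 ± 0.438 against 1.79 ± 0.595 FPKM, and that receptor, Flt4, at 1.33 against 1.55 FPKM, both with overlapping groups.

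The Tie receptors differed from each other in the spread of their values. Tie1, an orphan receptor that modulates its relative Tie2, was at 3.51, 4.34 and 4.09 FPKM in CKO libraries and at 4.73, 4.90 and 4.87 FPKM in WT libraries. All CKO values were below all WT values, and the WT libraries lay close together. The CKO mean was 17.6% below the WT mean (3.98 ± 0.426 against 4.83 ± 0.094 FPKM; log2 fold change -0.23, SE 0.09, limma unadjusted p = 0.0403, adjusted p = 0.604). Without CKO 1, the lowest library, the log2 fold change was -0.16 (adjusted p = 0.786). Tek, which encodes Tie2, the receptor of the angiopoietins, was at 1.49, 2.65 and 1.90 FPKM in CKO and at 2.27, 1.85 and 1.91 FPKM in WT. CKO libraries held both the lowest and the highest Tek value. The log2 fold change of Tek was -0.01 with an interval of -0.37 to 0.35, so a fold anywhere between 0.771 and 1.27 is within its error (adjusted p = 0.989), and it turned to 0.12 without CKO 1. The ratio of Tie1 to Tek was 1.64 to 2.35 in CKO and 2.08 to 2.65 in WT.

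The genes of the angiopoietin list were scarce. Angpt2, which encodes a context-dependent ligand of Tie2 made by endothelial cells, was at 1.65, 1.71 and 2.67 FPKM in CKO and at 2.67, 2.55 and 2.24 FPKM in WT (log2 fold change -0.23, interval -0.57 to 0.12, limma adjusted p = 0.768). Ptprb, the endothelial phosphatase that dephosphorylates Tie2, was at 2.95 ± 0.445 against 3.29 ± 0.212 FPKM (adjusted p = 0.833). Angptl4, a secreted inhibitor of lipoprotein lipase and no known partner of the Tie receptors, was at 1.34 against 1.499 FPKM. All 3 tested genes of this list had log2 fold changes below 0, none was called, and their groups overlapped. Of the untested ligands of Tie2, Angpt1, the pericyte-derived agonist, was at 0.337 to 0.513 FPKM over the 6 libraries. Angpt4 was at 1.40, 0.968 and 1.24 FPKM in CKO and at 0.418, 1.24 and 0.590 FPKM in WT, a ratio of means of 1.60 with overlapping groups.

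Among the junction genes, Cldn5, the tight junction protein that seals the blood-retina barrier, had the smallest unadjusted p of the 9. It was at 18.9, 21.2 and 18.9 FPKM in CKO libraries and at 21.9, 24.6 and 22.8 FPKM in WT libraries. The groups did not overlap, with a narrow gap between CKO 2 and WT 1. The means of 19.7 ± 1.34 FPKM in the CKO group and 23.1 ± 1.38 FPKM in the WT group (SD, n = 3 each) differed by 14.9% of the WT mean, and the log2 fold change was -0.22 (SE 0.07, interval -0.38 to -0.06, limma unadjusted p = 0.0126, adjusted p = 0.507). Over the 16 alternative fits the log2 fold change of Cldn5 lay between -0.28 and -0.18, the unadjusted p between 0.00436 and 0.0488, and the adjusted p between 0.360 and 0.776.

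Pecam1, an adhesion molecule of endothelial junctions that platelets and leukocytes also carry, was at 4.34, 6.27 and 6.15 FPKM in CKO and at 6.30, 6.88 and 8.93 FPKM in WT. CKO 1 was far below the others and WT 3 far above them, and the highest CKO value nearly met the lowest WT value. The log2 fold change was -0.35 (SE 0.16, interval -0.71 to 0.01, limma adjusted p = 0.650), the greatest in size among the 9. It was -0.20 without CKO 1 and -0.22 without WT 3, so each of these libraries moves it by over 1.5 times. With quantile normalization the groups of Pecam1 overlapped, and those of Cldn5 and Tie1 did not. Cdh5, which encodes VE-cadherin of the adherens junction, was at 3.38, 3.80 and 4.25 FPKM in CKO and at 3.50, 4.46 and 5.04 FPKM in WT. Its groups overlapped (log2 fold change -0.14, interval -0.45 to 0.16, adjusted p = 0.831), and without WT 3 the value was -0.05, without CKO 1 it was -0.08 and without WT 1 it was -0.26. A predicted antisense gene overlaps Cdh5, and the sources used here do not say whether counting used strand, so reads of the pair may not be told apart.

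**Figure D2:**
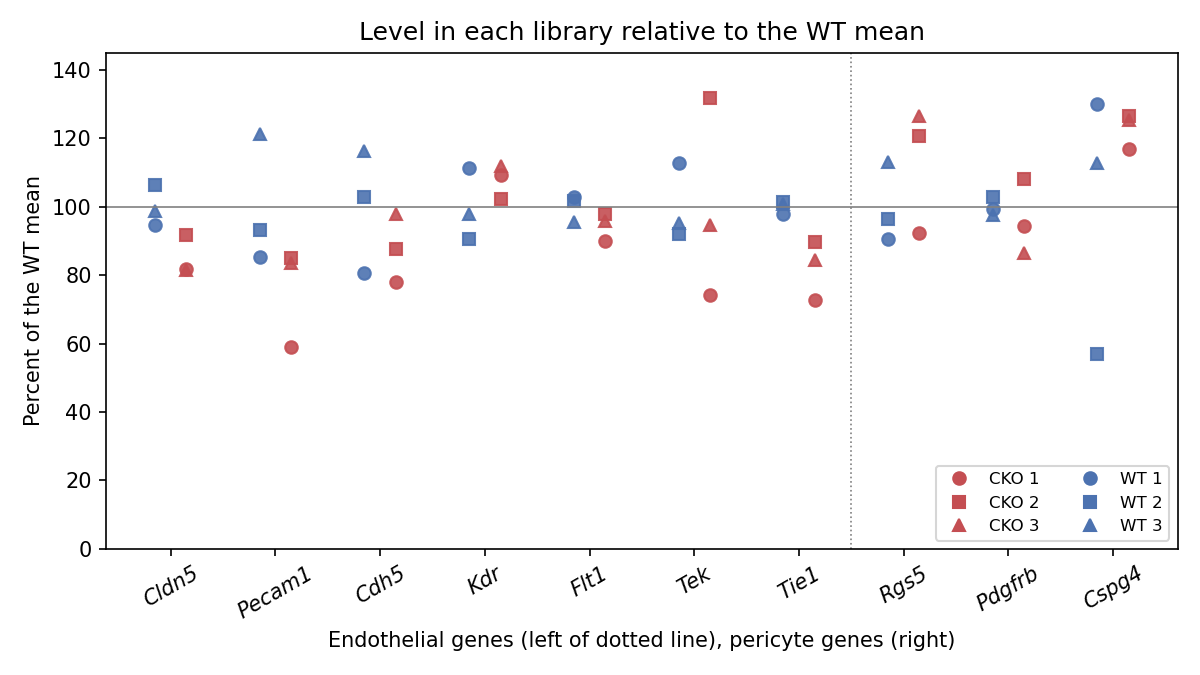
Level of each gene in each library as a percentage of the mean of the 3 WT libraries (grey line at 100%), with the endothelial genes on the left and the pericyte genes on the right of the dotted line. The CKO points of Cldn5, Pecam1 and Tie1 all lie below the WT points, and CKO 1 is the lowest library for 5 of the 7 endothelial genes.

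CKO 1 stood out among the libraries. It held the lowest value for 5 of the 7 endothelial genes (Pecam1, Cdh5, Flt1, Tek and Tie1), and its median level over the 7 was 77.9% of the WT mean, against 91.8% in CKO 2 and 94.7% in CKO 3. Among 25 other tested endothelial genes, 14 were lowest in CKO 1, 0 in CKO 2 and 3 in CKO 3, and the median of CKO 1 was 79.6% of the WT mean, against 106.2% in CKO 2 and 95.4% in CKO 3. Over all genes tested, CKO 1 was lowest for 20.8%. The median over all genes was 99.8% of the WT mean in CKO 1, so its overall scale was that of the other libraries. Without CKO 1 the log2 fold changes of Cldn5, Pecam1 and Tie1 were -0.20, -0.20 and -0.16. These genes again had no overlap between the groups. That result was fixed in advance, because leaving a library out cannot make groups that stand apart overlap. With 2 against 3 libraries, 11.7% of all genes tested were lower with no overlap.

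Markers of other cell types were set beside these differences. The 5 retinal ganglion cell markers summed to 381.5 to 401.6 FPKM in CKO and to 432.4 to 474.3 FPKM in WT, with no overlap. All 5 had log2 fold changes below 0, 4 of the 5 (Pou4f1, Nefl, Slc17a6 and Thy1) did not overlap between the groups (6.95% of all genes tested were lower with no overlap), 3 had an unadjusted limma p below 0.05 (4.36% of all genes, CKO lower), none was called, and none was at 0. Their part in the values of Cldn5, Pecam1 and Tie1 was not tested. Red blood cell markers summed to 34.8 to 53.2 FPKM in CKO and to 42.6 to 77.6 FPKM in WT. Microglia and macrophage markers summed to 19.0 to 21.8 against 20.6 to 27.99 FPKM, and astrocyte markers to 36.6 to 46.5 against 37.4 to 61.3 FPKM. Fibroblast markers summed to 11.2 to 12.8 against 11.3 to 14.9 FPKM, with Lum at 0 in 5 of 6 libraries. The groups overlapped in each of these 4 lists. WT 3, the highest library for Pecam1 and Cdh5, held the highest sum in 7 of the 10 marker lists of other cells. Outside the ganglion cell list, 2 tested marker genes were lower in CKO with no overlap, namely Lyve1 and Nrl. They were 1 of 3 tested lymphatic markers and 1 of 5 tested rod markers. Each remaining marker list of other cells, with 2 to 6 tested genes, held 0. The share over all genes tested was 6.95%. Lyve1, a marker of lymphatic endothelium and some macrophages, was at 6.55 to 6.65 against 6.98 to 7.82 FPKM. Nrl, a photoreceptor transcription factor, was at 592.8 to 637.0 against 659.9 to 678.6 FPKM. The fibroblast marker Col1a1, too low to be tested, was also lower without overlap (0.095 to 0.130 against 0.140 to 0.231 FPKM). Its list did not share this: the groups overlapped for all 3 tested fibroblast markers. Dcn, also untested, had a mean of 0.122 FPKM in CKO and 0.0546 FPKM in WT, with overlapping groups.

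Of the genes of norrin signalling and the blood-retina barrier, 14 of 16 were tested, with 8 log2 fold changes above 0 and 6 below 0, a median of 0.01 and none called by limma. Slc2a1, the glucose transporter of barrier endothelium that neurons and glia of the retina also use, was at 102.3 ± 2.15 FPKM in the CKO group and 100.1 ± 1.14 FPKM in the WT group (log2 fold change 0.03, interval -0.06 to 0.12). Slc7a5, an amino acid transporter, was at 28.2, 37.6 and 34.6 FPKM in CKO and at 35.1, 41.4 and 40.5 FPKM in WT, with overlapping groups (log2 fold change -0.22, adjusted p = 0.684). Ndp, which encodes norrin, the Muller glia ligand that induces the barrier, was at 4.80, 4.99 and 4.38 FPKM in CKO and at 5.42, 5.46 and 7.05 FPKM in WT. Its groups did not overlap, and the log2 fold change was -0.28 (interval -0.54 to -0.02, unadjusted p = 0.0361, adjusted p = 0.601). Slco1a4, an organic anion transporter of barrier endothelium, was at 1.32 ± 0.212 against 1.73 ± 0.115 FPKM, also without overlap (-0.24, adjusted p = 0.698). Ndp and Slco1a4 were named for their small p. They were the 2 of the 14 tested genes lower without overlap, and 0 were higher, beside 6.95% and 6.96% of all genes tested.

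Among other endothelial genes, 25 of 27 found were tested, with 17 log2 fold changes below 0 and 8 above 0 and a median of -0.10, and none was called. Their groups stood apart for 1 gene lower in CKO and 2 higher, beside 6.95% lower and 6.96% higher over all genes tested. Podxl, a sialomucin of the luminal membrane, was at 47.7 ± 0.848 against 47.0 ± 1.70 FPKM, and S1pr1, a sphingosine 1-phosphate receptor, at 13.1 against 12.4 FPKM. Cd34, a sialomucin of endothelium and progenitors, was the lower gene, at 5.45, 6.37 and 5.79 FPKM in CKO and at 6.67, 6.77 and 8.44 FPKM in WT (log2 fold change -0.27, limma adjusted p = 0.601). Ly6a, a surface protein of endothelium and stem cells, was at 1.42, 1.57 and 1.54 FPKM in CKO and at 1.112, 1.19 and 0.698 FPKM in WT, so all CKO values were above all WT values (0.34, adjusted p = 0.608). The other higher gene was Apln, which encodes a peptide hormone of sprouting vessels, at 4.15 ± 0.960 against 3.21 ± 0.211 FPKM and named after its values were seen.

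Of the pericyte genes, 2 of 3 were tested, 1 with a log2 fold change above 0 and 1 below 0, and the groups of all 3 overlapped. Rgs5, a regulator of G protein signalling enriched in pericytes, was at 22.8, 29.8 and 31.3 FPKM in CKO libraries and at 22.3, 23.8 and 27.9 FPKM in WT libraries. CKO 2 and CKO 3 were the highest of the 6, while CKO 1 lay within the WT range. The log2 fold change was 0.17 (SE 0.13, interval -0.12 to 0.46, limma adjusted p = 0.780), and it was 0.30 without CKO 1 (unadjusted p = 0.0169, adjusted p = 0.595), 0.26 without WT 3, 0.12 without CKO 2, 0.10 without WT 1 and 0.08 without CKO 3. Pdgfrb, the receptor through which PDGF-B recruits pericytes, was at 5.64, 6.45 and 5.16 FPKM in CKO and at 5.92, 6.14 and 5.83 FPKM in WT. The CKO values enclosed the WT values, and the log2 fold change was -0.05 with an interval of -0.26 to 0.16, which as a fold is 0.834 to 1.12 (adjusted p = 0.937). It turned to 0.0147 without CKO 3 and was -0.12 without CKO 2. Cspg4, which encodes the NG2 proteoglycan of pericytes and oligodendrocyte precursors, did not reach the minimum mean. It was at 0.788, 0.853 and 0.845 FPKM in CKO and at 0.877, 0.385 and 0.760 FPKM in WT, where WT 2 alone was low. With a lower minimum, the log2 fold change of Cspg4 was 0.14 (adjusted p = 0.855). Of the oligodendrocyte lineage markers, Olig2 was at 0 in all 6 libraries and Olig1 in 4 of 6.

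Of the PDGF genes, 5 of 5 were tested, with 3 log2 fold changes above 0 and 2 below 0, and none was called. Pdgfb, the endothelial ligand of Pdgfrb, was at 1.49, 1.83 and 1.66 FPKM in CKO and at 1.81, 1.89 and 1.90 FPKM in WT (log2 fold change -0.11, interval -0.36 to 0.14, limma adjusted p = 0.853), and CKO 1 was again the lowest library. Pdgfa, the ligand for retinal astrocytes made by ganglion cells, was at 8.27 ± 1.23 against 7.83 ± 1.23 FPKM. Its receptor Pdgfra was at 6.43 against 7.11 FPKM, and Pdgfd at 3.06 against 2.44 FPKM (0.25, adjusted p = 0.734). Other pericyte and smooth muscle genes gave 4 log2 fold changes above 0 and 5 below 0 among 9 tested of 15, and none was called. Mcam, an adhesion molecule of mural and endothelial cells, was at 7.22 ± 1.22 against 8.71 ± 1.47 FPKM (-0.24, adjusted p = 0.750), and Ndufa4l2, a mitochondrial protein enriched in pericytes, at 6.96 ± 0.856 against 5.997 ± 1.72 FPKM (0.21, adjusted p = 0.817). Vtn, the adhesion glycoprotein vitronectin, was at 214.4 ± 2.79 against 199.4 ± 13.05 FPKM, far above Rgs5, and which cells gave this level was not tested. Cox4i2, an isoform of a cytochrome oxidase subunit, was at 40.2 ± 3.84 against 37.9 ± 5.60 FPKM. The smooth muscle genes Acta2, Myh11, Des and Cnn1 were below the minimum mean.

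**Figure D3:**
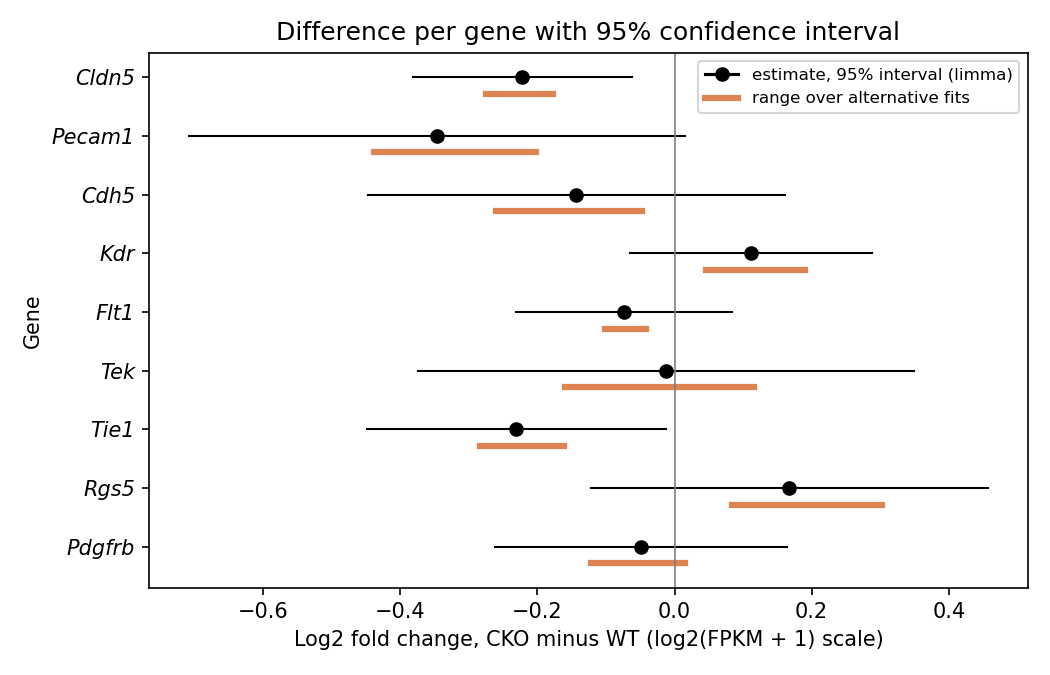
Log2 fold change (CKO minus WT, on the log2(FPKM + 1) scale) of the 9 tested genes with the limma estimate and its 95% confidence interval in black, and the range over the alternative fits in orange. The intervals of Cldn5 and Tie1 lie below 0, the other 7 include 0, and none passed adjustment over all genes.

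Summed levels show how the compartments compared within a library. The 7 endothelial genes summed to 109.5 to 115.3 FPKM in the CKO group and 109.9 to 119.0 FPKM in the WT group, with overlapping groups, and Kdr made up 52.1% to 63.1% of this sum. Without Kdr, a choice made after the values were seen, the sum was 40.4, 47.8 and 44.6 FPKM in CKO and 48.7, 52.6 and 52.9 FPKM in WT, all CKO values being lower, and Cldn5 made up 42.3% to 46.8% of it. The 3 pericyte genes summed to 29.2, 37.1 and 37.3 FPKM in CKO and to 29.1, 30.3 and 34.5 FPKM in WT. The ratio of the pericyte sum to the endothelial sum was 0.267 to 0.330 in CKO and 0.245 to 0.301 in WT. With Kdr left out, it was 0.723, 0.777 and 0.835 in CKO and 0.598, 0.577 and 0.652 in WT, and the groups stood apart. Kdr was the 1 endothelial gene with a log2 fold change above 0, so the choice itself favours such a separation, in this ratio and in the sum. These ratios are descriptions. Rgs5 is the most abundant gene of the pericyte sum, and Kdr, or Cldn5 where Kdr is left out, of the endothelial sum.

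**Figure D4:**
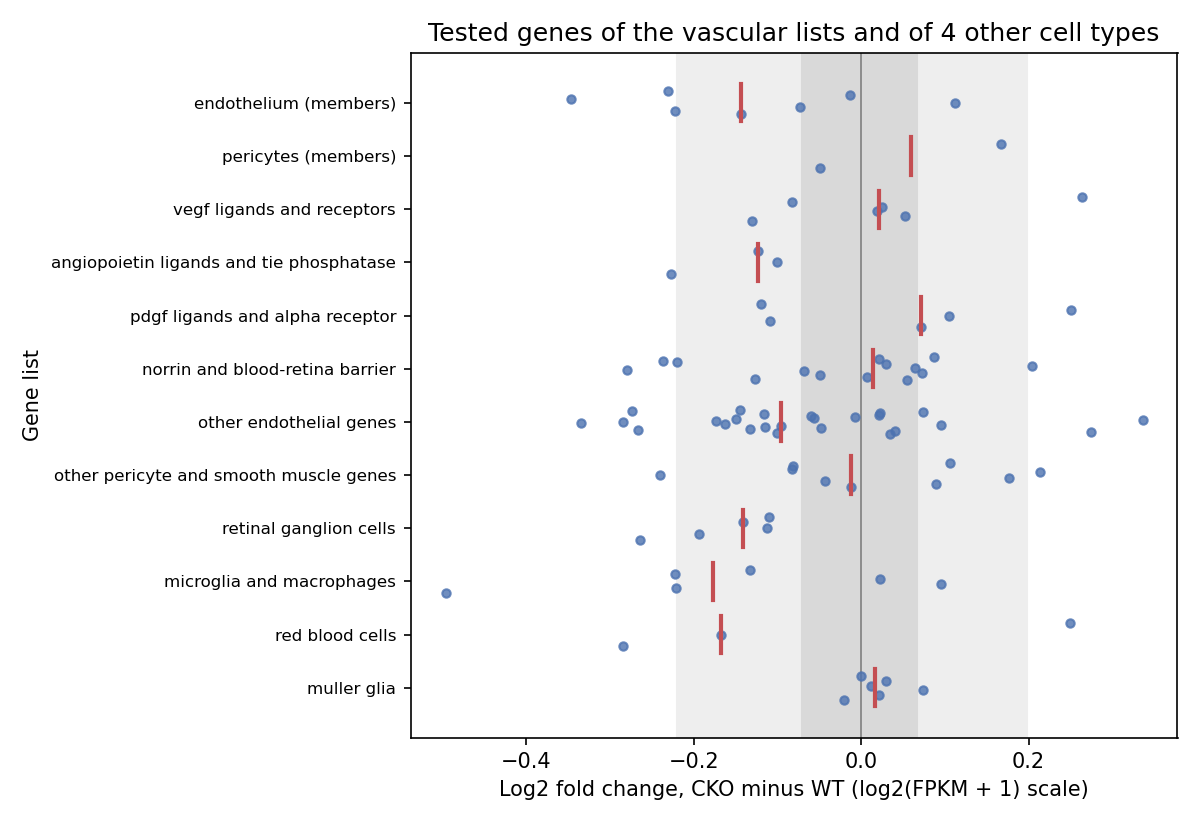
Log2 fold changes (CKO minus WT, on the log2(FPKM + 1) scale) of the tested genes of the endothelial, pericyte and vascular lists and of the ganglion cell, microglia, red blood cell and Muller glia lists. Each gene is 1 blue point and the list median a red bar. The middle 50% of all genes tested is in dark grey and the 5th to 95th percentile in light grey. The other marker lists are not drawn, and their medians ran from -0.14 (astrocytes) to 0.18 (pigment epithelium). The median of the endothelial genes lies at -0.14 and that of the other endothelial genes at -0.10. The medians of the microglia, red blood cell and ganglion cell lists lie at -0.18, -0.17 and -0.14. Those of the norrin and Muller glia lists lie near 0.

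The 6 vascular lists together held 76 further genes found in the tables, of which 62 were tested and 0 were called (smallest limma adjusted p = 0.601). At an unadjusted p below 0.05, 2 were lower and 1 was higher in CKO. There were 35 log2 fold changes below 0 and 27 above 0, with a median of -0.05. The groups stood apart for 3 genes lower in CKO (4.84%) and for 2 higher (3.23%), shares below those over all genes.

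The genes whose pattern over the 6 libraries was most like the mean profile of the endothelial genes were Fam171b, Wfdc10, Cdh10, Gsta4 and Cdc14b (Pearson's r 0.983 to 0.989 over 6 libraries), among 12331 candidates of which 156 had r above 0.9. For Fam171b the values were 58.9, 66.0 and 63.5 FPKM in CKO and 66.1, 66.8 and 66.8 FPKM in WT, with CKO 1 lowest. Those most like the pericyte profile of Rgs5 and Pdgfrb were Aplnr, Gtdc1, Adcyap1, Ncoa1 and Nrp2 (r 0.979 to 0.999), among 55 with r above 0.9. Aplnr, the apelin receptor, was at 3.37, 4.75 and 3.78 FPKM in CKO and at 3.53, 3.86 and 4.02 FPKM in WT. Rgs5 and Pdgfrb themselves had r = -0.20 over the 6 libraries, so the pericyte profile is a mean of unlike patterns. With 6 libraries many genes reach a high r, and the likeness is a description.

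On GRCm38 with the GENCODE M21 annotation, Kdr spans 75932827 to 75978458 and Flt1 147561604 to 147726011 on chromosome 5, both on the minus strand. Tek (94739289 to 94874976, plus strand) and Tie1 (118471191 to 118490061, minus strand) lie on chromosome 4. Cldn5 is a gene of 1 exon at 18776847 to 18778262 on chromosome 16, plus strand, and Pecam1 lies at 106654217 to 106750628 on chromosome 11, minus strand, the chromosome that also carries Cyfip2 (46193850 to 46312859). Cdh5 lies at 104101625 to 104144511 on chromosome 8, Rgs5 at 169655501 to 169695813 on chromosome 1, Cspg4 at 56865033 to 56899870 on chromosome 9 and Pdgfrb at 61045150 to 61085061 on chromosome 18, all on the plus strand. All 10 are annotated as protein-coding. Among them only Cdh5 is overlapped by another annotated gene.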

How the data were processed

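Retinal mRNA was profiled in 3 CKO and 3 WT libraries. RNA was extracted with TRIzol and made into stranded libraries, per the labels' protocols. The deposited values are FPKM per gene symbol, a unit judged from the values and from the tool Cufflinks 2.2.1, which the submitters' processing notes name with TopHat2 2.0.13, Bowtie2 2.3.5.1, SAMtools 1.11 and mm10. The sources used here give neither the annotation nor whether counting used strand. Of the symbols of WT 3, 27 had been turned into dates and were restored by row.

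FPKM keeps no counts, so depth is known only relative to WT 1, from ratios of values at genes with a mean below 0.3 FPKM. Here values were taken as log2(FPKM + 1), genes whose mean reached 1 FPKM were tested with limma 3.58.1 in R 4.3.3 (eBayes with trend, two-sided), and p-values were adjusted over all genes (Benjamini-Hochberg, 0.05). On this scale the changes of low genes are understated. The fit was tested on simulated data. A permutation test of 3 against 3 libraries cannot go below p = 0.1 and was not used. The 10 genes and the lists were chosen with earlier results of these data known. Named from each list are the 2 genes of highest mean and the 2 of smallest p among the others. For likeness, the 5 genes of highest r with each mean profile are named, predicted and small RNA genes left out. Alternatives changed the pseudocount, filter, scaling, variance model, replicate block and libraries included.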

Additional observations from a re-analysis of the deposited data

How the results depend on the processing

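No endothelial or pericyte gene, and no gene of the vascular lists, was called in any of the 16 alternative fits, among them pseudocounts of 0.1 and 0.01, no filter, minimum means of 0.1 and 5 FPKM, and each library left out. Of 142 refitted log2 fold changes, 138 kept their direction. Many of these could not have turned, because the filter, the replicate block and the variance model leave a log2 fold change as it was. Only the pseudocount, the scaling and the libraries included can move it, and all 4 reversals came with a library left out. Tek turned to 0.12 without CKO 1, to 0.0055 without CKO 3 and to 0.05 without WT 1, and Pdgfrb to 0.0147 without CKO 3. With a library left out, Tek ranged from -0.16 to 0.12 and Pdgfrb from -0.12 to 0.0147. The count of genes called over the whole table was 3, against 1 without the variance trend, and 1 to 4 with a library left out (1 without WT 2). The log2 fold change of Cyfip2 was -2.55 without WT 1 (adjusted p = 0.00160) and lay between -2.37 and -2.15 in each of the 5 other fits with a library left out, where it missed the threshold (adjusted p 0.0663 to 0.197). It was -2.29 with adjusted p = 0.0740 without the filter, 0.111 with robust eBayes and 0.102 without the trend; the cause was not tested. Of the 9 genes, 2 were lower in CKO with no overlap under quantile normalization (6.32% of all genes) and 3 to 4 with a library left out (11.0% to 13.1% of all genes, so not to be read against the 3 of the full comparison), alternatives chosen after seeing the data. With a library left out this count can rise but cannot fall. With the replicate block, 2 genes of the whole table and 0 of the 9 were called, and the adjusted p of Cldn5 was 0.360. Same-numbered libraries deviated together by r = 0.07, 0.0063 and 0.10, and CKO 2 correlated better with WT 1, so the numbers were not taken as pairs. The files hold no counts, so the part of depth in the spread of Cspg4 and other genes near 1 FPKM was not tested.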
